A study of Homo sapiens with 8 samples.

Results

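ICAM1, CD83, TNFAIP2, F3 and SDC4 are 5 genes that many cell types switch on or raise under inflammatory signals, and 4 of them encode proteins of the cell surface. They were chosen by name from earlier results of these data, in the comparison of mRNA and of N6-methyladenosine (m6A) peaks between the Control and FUSO groups, so their values in that comparison are given as a description, without a test. They make up 5 of the 19475 entries of the mRNA table and hold 10 of the 22001 regions with an m6A peak. The study asked whether Fusobacterium nucleatum, a bacterium found in colorectal tumours, changes m6A in colorectal cancer cells. HCT116, a human colorectal carcinoma cell line, received PBS (Control) or F. nucleatum (FUSO), per the methods for 2 h at 100 bacteria per cell, and each group had 2 biological replicates. Polyadenylated RNA of each replicate was sequenced as input and after pulldown with an m6A antibody (IP), giving 8 libraries, and all groups carried the same cell line with no engineered change. The 4 input libraries gave the mRNA levels and each pair of IP and input gave 1 peak list.

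ICAM1 is an adhesion receptor of the immunoglobulin superfamily to which integrins of leukocytes bind. CD83 is a surface marker of mature dendritic cells, also of the immunoglobulin superfamily, and TNFAIP2 is a protein first found as a TNF-induced transcript in endothelial cells, related to the exocyst subunit SEC6 and known for the growth of membrane tubes. F3 is tissue factor, the receptor that starts the clotting cascade with factor VII, and SDC4 is syndecan 4, a proteoglycan whose heparan sulfate chains hold growth factors and matrix proteins at focal adhesions. NF-kB is known to act on the promoters of several of these genes. m6A is a methyl mark on adenosines of mRNA, set mostly in the letters DRACH (D is A, G or T, R is A or G, H is A, C or T) with GGAC as the most used core, and it is known to be densest around stop codons.

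The windows below are shown because they lie where the m6A peaks of all 4 lists meet. They are all the GGAC of the DRACH form that lay in a 3′UTR and under a peak of every list, 12 in all. Each is the 25 bases around the motif, on GRCh37 (hg19), read 5′ to 3′ on the strand of the gene, with its 5 letters in capitals. The methylated base itself was not resolved by the peak lists, so a motif under a peak is a description and not a mapped site.
ICAM1, chr19, plus strand, A at 10395976, 15 nt after the first base of the stop codon: acctatcccgGGACAgggcctcttc
ICAM1, chr19, plus strand, A at 10396085, 124 nt after it: ggacgccggaGGACAgggcattgtc
ICAM1, chr19, plus strand, A at 10396286, 325 nt after it: cccaccatgaGGACAtacaactggg
CD83, chr6, plus strand, A at 14135735, 270 nt after it: tcaacctcctGGACAttttttcagt
CD83, chr6, plus strand, A at 14135834, 369 nt after it: agactcctgaGGACAgctgtcctct
CD83, chr6, plus strand, A at 14135861, 396 nt after it: tgcatcttggGGACAtctctttgaa
TNFAIP2, chr14, plus strand, A at 103601866, 171 nt after it: agctggaactGGACAgaccttggtt
TNFAIP2, chr14, plus strand, A at 103601942, 247 nt after it: gcaacaccaaGGACTctttgtaaac
TNFAIP2, chr14, plus strand, A at 103602024, 329 nt after it: agggatccccGGACAcctctgtcca
F3, chr1, minus strand, A at 94995666, 352 nt after it: aatcctgggtGGACTtttgaaaagc
SDC4, chr20, minus strand, A at 43955878, 28 nt after it: gcactggcttGGACTttagcgggga
SDC4, chr20, minus strand, A at 43955838, 68 nt after it: tttgaagggtGGACAttagggtagg

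TNFAIP2 and CD83 also had a region that was listed in FUSO only. That of TNFAIP2 lay over the start codon. Its coding part is printed whole (chr14:103592795-103592962, plus strand, GRCh37, 168 bases, codons 1 to 56 of exon 2), with its only GGAC in capitals. The FUSO lists share only its first 79 bases, codons 1 to 27, and the rest was in FUSO 2 alone. The coding bases that all 4 peaks of ICAM1 share, up to the stop codon, are given for comparison (chr19:10395657-10395963, plus strand, 221 bases of 2 exon blocks, codons 460 to 533), again with GGAC in capitals. The window of CD83 in FUSO only lay far into the 3′UTR.
TNFAIP2, codons 1 to 56: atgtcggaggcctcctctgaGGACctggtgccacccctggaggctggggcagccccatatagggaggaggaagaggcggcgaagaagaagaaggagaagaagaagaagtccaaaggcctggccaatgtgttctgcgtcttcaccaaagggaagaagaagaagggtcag
ICAM1, codons 460 to 533: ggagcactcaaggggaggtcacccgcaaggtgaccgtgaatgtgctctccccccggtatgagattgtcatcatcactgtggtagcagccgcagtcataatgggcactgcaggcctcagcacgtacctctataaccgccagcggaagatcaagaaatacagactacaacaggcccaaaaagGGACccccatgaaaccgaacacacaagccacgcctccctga
CD83, chr6, plus strand, A at 14136672, 1207 nt after the first base of the stop codon: tccaagatatGGACAcacgggagcc

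mRNA levels were described first, in FPKM, a fragment number divided by transcript length and library total, so that levels can be set side by side between genes. All 5 genes passed the filter of a mean of at least 1 FPKM, and the mRNA of each was higher in both FUSO libraries than in both Control libraries. That order of libraries was found in 26.1% of the 11088 genes that passed the filter, and since it was part of how the 5 genes were chosen nothing is read from their count. The median difference of the 5 genes was 1.12 on the log2(FPKM + 1) scale, beside 0.01 over all genes that passed. In bulk RNA, a change in the share of cells that make a transcript and a change in the amount per cell cannot be told apart.

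ICAM1 (chr19:10381796-10397291, plus strand, 7 exons) measured 1.92 FPKM in Control 1 and 1.98 FPKM in Control 2, against 9.15 FPKM in FUSO 1 and 8.30 FPKM in FUSO 2. The FUSO libraries lay far above the Control libraries, and the replicates of a group lay close together. The means were 1.95 ± 0.041 and 8.72 ± 0.60 FPKM (SD, n = 2 each), a ratio of 4.47, which ran from 4.19 to 4.75 over the pairs of single libraries. The log2(FPKM + 1) difference was 1.72, the 12th largest of the genes that passed the filter, and it was 2.1 with a pseudocount of 0.1, since a pseudocount of 1 understates changes at such levels. ICAM1 is overlapped on the opposite strand by LIMASI and ICAM4-AS1, and as no source used here states that strand was kept, their reads cannot be told apart from its own.

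CD83 (chr6:14118003-14137137, plus strand, 5 exons) stood at 2.86 and 3.03 FPKM without and at 7.74 and 8.70 FPKM with F. nucleatum. The groups did not overlap. The means of 2.95 ± 0.12 and 8.22 ± 0.68 FPKM (SD, n = 2 each) gave a ratio of 2.79, and the difference was 1.22 on the log2(FPKM + 1) scale, or 1.45 with a pseudocount of 0.1. CD83 is mostly studied in immune cells, and of 9 immune cell markers 8 were below 1 FPKM in the mean, at no more than 0.216 FPKM in any library. The exception was CD68, a lysosomal protein that many cell lines express.

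TNFAIP2 (chr14:103589798-103603776, plus strand, 12 exons) had levels of 11.3 and 9.74 FPKM in Control 1 and 2, and of 24.1 and 23.8 FPKM in FUSO 1 and 2. The FUSO libraries were nearly equal, and the spread lay in the Control group. The means were 10.5 ± 1.14 and 24.0 ± 0.17 FPKM (SD, n = 2 each), a ratio of 2.27 and a difference of 1.12 on the log2(FPKM + 1) scale.

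SDC4 (chr20:43953928-43977064, minus strand, 5 exons) had the highest level of the 5 genes, with 72.7 and 68.5 FPKM in Control cells and 117 and 125 FPKM after F. nucleatum. The groups were apart by much more than the replicates of either. The means were 70.6 ± 2.98 and 121 ± 5.85 FPKM (SD, n = 2 each), a ratio of 1.71 and a log2(FPKM + 1) difference of 0.77. The annotation places another gene, ENSG00000275894, on the same strand where it overlaps SDC4, and reads from the overlap could count here.

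F3 (chr1:94994729-95007315, minus strand, 6 exons) changed least, although its name stands among the inducible genes. It measured 48.3 and 44.5 FPKM in Control cells, against 53.4 and 55.1 FPKM in FUSO cells. The lowest FUSO library was 1.11 times the highest Control library. The means were 46.4 ± 2.67 and 54.3 ± 1.17 FPKM (SD, n = 2 each), a ratio of 1.17, and the log2(FPKM + 1) difference of 0.22 ranked 1060th of 11088 genes. Tissue factor mRNA was thus already high in Control cells, above 92.2% of all entries of the table.

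**Figure D1:**
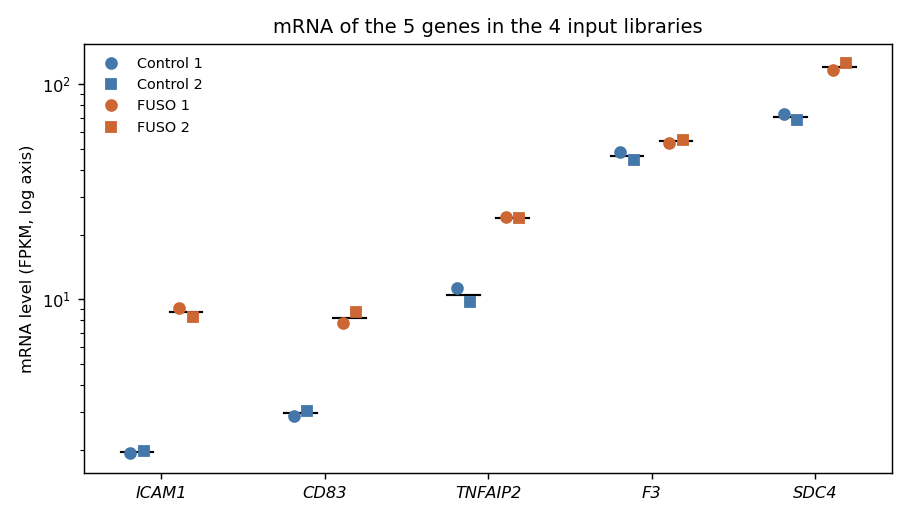
mRNA level in FPKM (log axis) of the 5 genes in each of the 4 input libraries, circles for replicate 1 and squares for replicate 2, blue for Control and orange for FUSO, with a bar at the mean of each group. The FUSO points lie above the Control points in each gene, from a ratio of means of 4.47 in ICAM1 down to 1.17 in F3.

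The order of the levels differed between the groups at its lower end. In Control cells it was SDC4, F3, TNFAIP2, CD83 and ICAM1 from high to low, and no neighbours in this order overlapped in their replicates. In FUSO cells ICAM1 (8.30 and 9.15 FPKM) and CD83 (7.74 and 8.70 FPKM) overlapped, so their order could not be set, while the others kept their places. ICAM1 moved from above 49.7% of the entries of the table in Control cells to above 70.2% in FUSO cells, and SDC4 only from 95.0% to 97.3%.

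Genes with the profile over the 4 input libraries most like that of each member were then listed. The measure was the distance between log2(FPKM + 1) values centred on their mean. A small distance means a like difference on that scale and like replicates, but not a like ratio, which that scale understates at low levels. For the genes named below, the ratio of means was 9.4 in BIRC3, 10.0 in IL6ST and 3.0 in JUN, beside 4.47 in ICAM1. The ratio was 3.89 in PRSS23, 2.16 in DUSP5 and 2.37 in CDV3, beside 2.27 in TNFAIP2. Over the pairs of single libraries it ran from 7.01 to 17.2 in IL6ST, whose Control values were only 0.201 and 0.477 FPKM. In PRSS23, with 0.824 and 0.597 FPKM in Control, it ran from 3.33 to 4.66. The listing was a description over 4 libraries. Closest to ICAM1 were BIRC3, an inhibitor of apoptosis (distance 0.13, from 0.439 ± 0.014 to 4.12 ± 0.064 FPKM), IL6ST, a signalling receptor chain for cytokines of the IL-6 family (0.20), and JUN, a subunit of AP-1 (0.21, from 17.2 ± 0.50 to 51.7 ± 0.049 FPKM; SD, n = 2 each). Closest to CD83 were the growth inhibitor BTG2 (0.20) and the transcription factors MAFF and SRF (0.21 each), with differences of 1.09, 1.03 and 1.13 on the log2 scale. Closest to TNFAIP2 were the protease PRSS23 (0.032), the phosphatase DUSP5 (0.033, from 86.5 ± 6.86 to 187 ± 0.52 FPKM, SD, n = 2 each) and CDV3 (0.10). Closest to SDC4 were RAET1L, a ligand of the NKG2D receptor (0.058), IER3, an immediate early gene (0.059, from 114 ± 1.12 to 198 ± 5.82 FPKM, SD, n = 2 each) and ZC3H12A, an RNase that degrades inflammatory mRNAs (0.060). Closest to F3 were AOC2, HEATR5A and SFR1 (0.008, 0.018 and 0.019), which is the profile of a small difference and is shared by many genes.

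The m6A peaks of the 5 genes were described next. Each peak list holds the exon blocks of its peaks and 1 value per peak, read here as the p-value of the authors' caller, and peaks that shared at least 1 base on 1 strand were joined across the lists into regions. The 5 genes had 27 peaks in 10 regions. Of these, 5 regions, 1 in each gene, were in all 4 lists, as were 51.5% of all regions. In both FUSO lists and no Control list there were 2 regions, beside 2.38% of all regions, and in both Control lists and no FUSO list there were 0, beside 2.64% of all regions. The remaining 3 regions were in a single list. Because peak presence was part of the comparison that chose the genes, nothing is read from these counts, and a region without a listed peak is one where no peak was called, not one shown to lack m6A.

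**Figure D2:**
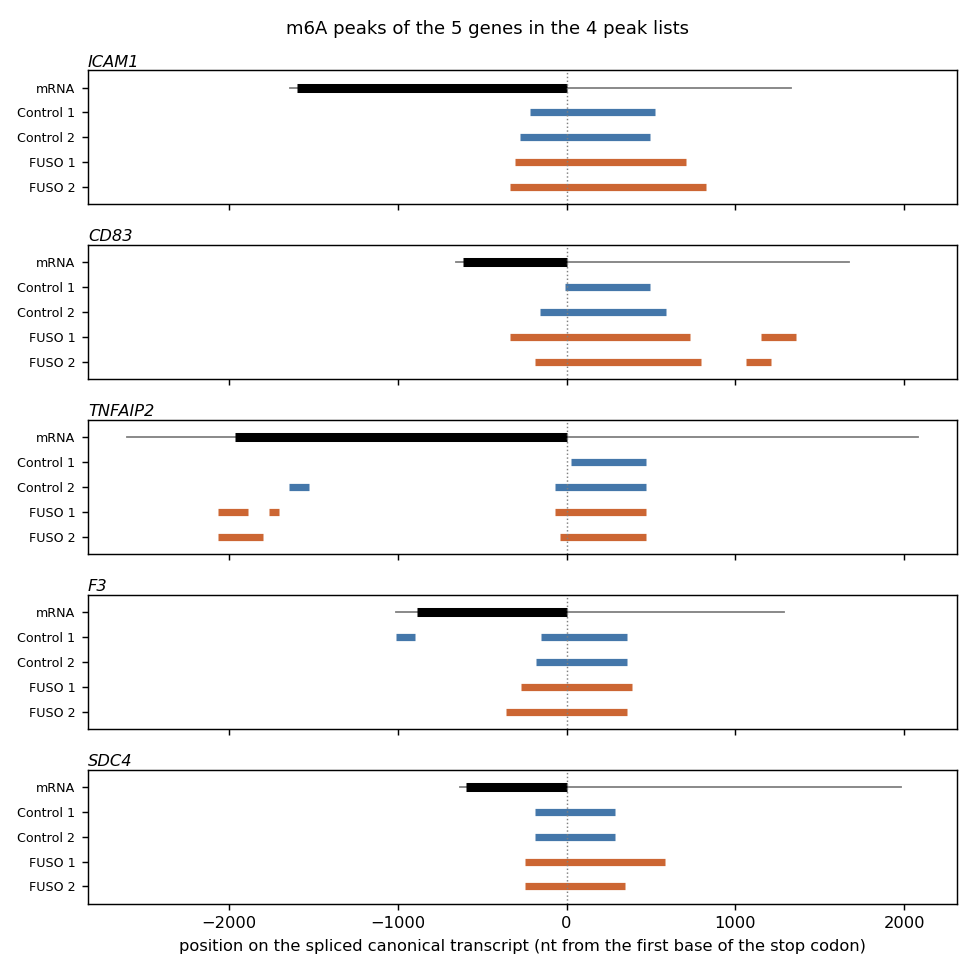
Position of every m6A peak of the 5 genes on the spliced canonical transcript, in nt from the first base of the stop codon (dotted line), with the coding sequence as a thick black bar, the UTRs as a thin line, Control peaks in blue and FUSO peaks in orange. Each gene has a peak at the stop codon in all 4 lists, except that the peak of TNFAIP2 in Control 1 begins just downstream of it. Peaks away from it are seen in CD83, TNFAIP2 and F3.

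All 5 shared regions lay at the stop codon. Their 20 peaks covered it in 19 cases, and the exception, that of TNFAIP2 in Control 1, began just downstream of it. Of the 18213 regions that could be placed on a canonical protein-coding transcript, 32.3% covered the stop codon. This share includes regions that were not in all lists, so it is not matched to the 5 shared regions. The other regions of the 5 genes, which were not in all lists, did not cover the stop codon. A peak was common at these mRNA levels: among genes within 2-fold of the level of a member in the same library, between 66.1% and 83.0% had a peak in that list.

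In ICAM1 the region (chr19:10395538-10396785, exons 6 and 7) had peaks of 745 and 775 bases in the Control lists and of 1013 and 1162 bases in the FUSO lists. The FUSO peaks reached further on both sides, into the coding sequence from codon 460 and 440 to codon 430 and 420, and further into the 3′UTR. The p-values were 6.3e-13 and 2.5e-22 in the Control lists and 1.6e-94 and 1e-82 in the FUSO lists. A 19-residue window of the protein with a mean hydropathy of 2.35 on the Kyte-Doolittle scale, the highest of the protein past its first 40 residues and above the value of 1.6 often used for membrane spans, lay at residues 481 to 499. The codons of this window were covered whole by the peak in all 4 lists, as were those of the 33 residues that follow it.

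In CD83 the shared region (chr6:14131880-14136259, exons 3 to 5) had peaks of 505 and 742 bases in the Control lists and of 1068 and 980 bases in the FUSO lists. In Control 1 it held only the last codons, from codon 203, whereas in FUSO 1 it began at codon 95 in exon 3. The p-values were 1e-07 and 2.2e-09 in the Control lists and 1.6e-46 and 1e-36 in the FUSO lists, the weakest of the 5 genes in both groups. The most hydrophobic window of CD83, residues 145 to 163, was covered whole by the FUSO peaks, in part by that of Control 2 and not by that of Control 1. The region listed in FUSO only (chr6:14136525-14136822) lay in the 3′UTR of exon 5, with peaks of 209 and 150 bases, and it was weak, with p-values of 2.2e-06 and 0.001. Its peaks overlapped by 61 bases, which hold the GGAC printed above.

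In TNFAIP2 the shared region (chr14:103601629-103602166, exon 12) had peaks of 448 and 538 bases in the Control lists and of 538 and 508 bases in the FUSO lists, so that the widths overlapped between the groups. All peaks ended at the same base in the 3′UTR. The p-values were 6.3e-24 and 1.3e-36 in the Control lists and 6.3e-79 and 6.3e-56 in the FUSO lists. The region over the start codon (chr14:103592694-103592962, exon 2) was in both FUSO lists, with 180 and 269 bases, of which 101 lay in the 5′UTR, and with p-values of 4.6e-05 and 2e-07. The A of its GGAC stands in codon 8. Nearby coding parts of exons 2 and 3 held 2 more regions, each in a single list and each weak, chr14:103592992-103593364 in FUSO 1 (p 0.0032) and chr14:103593423-103593542 in Control 2 (p 0.0011), and neither holds a GGAC or any DRACH. No window of the TNFAIP2 protein passed the hydropathy value of 1.6, the highest being 0.98, so no membrane span was found in it by this measure, unlike in the other 4 proteins.

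In F3 the shared region (chr1:94995629-94998710, exons 4 to 6) had peaks of 509 and 539 bases in the Control lists and of 659 and 719 bases in the FUSO lists. Its p-values were low in each list, 2.5e-85 and 4e-66 in Control and 1e-108 and 4e-88 in FUSO, and those of Control 1 and FUSO 2 were close. The peaks reached back to codons 246 and 236 in the Control lists and to codons 206 and 176 in the FUSO lists, all of them upstream of the most hydrophobic window at residues 252 to 270. A further region over the start of the transcript, in the 5′UTR (chr1:95007204-95007323), was listed in Control 1 only, with a p-value of 0.00022, and 8 of its 120 bases lay outside the annotated transcript.

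In SDC4 the region (chr20:43955324-43959104, exons 4 and 5) had peaks of 476 bases with the same ends in both Control lists and of 831 and 594 bases in the FUSO lists. The p-values were 7.9e-51 and 4e-81 in the Control lists and 1e-160 and 1e-119 in the FUSO lists. The peaks covered from codon 136 in Control and from codon 116 in FUSO to the stop codon, which includes the hydrophobic window at residues 150 to 168 and the 30 residues after it. The Control replicates differed more in their p-values here than in width.

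**Figure D3:**
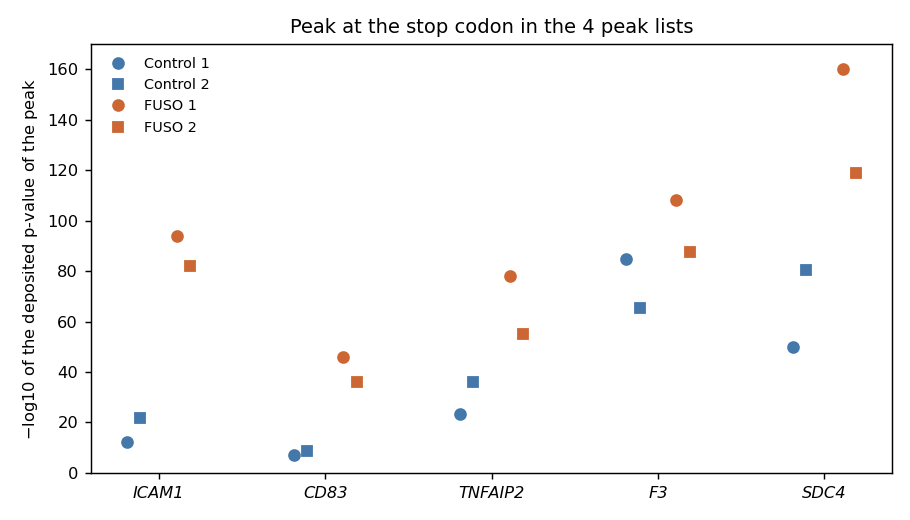
Size of −log10 of the deposited p-value for the peak at the stop codon in each of the 4 lists, circles for replicate 1 and squares for replicate 2, blue for Control and orange for FUSO. The FUSO points lie above the Control points in each gene, by the least in F3, where they are at 108 and 87.4 and those of Control at 84.6 and 65.4.

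The p-value of the stop codon peak was lower in both FUSO lists than in both Control lists in 5 of 5 genes, beside 15.7% of the 11341 regions that were in all 4 lists. The peak was wider in both FUSO lists in 4 of 5 genes, not in TNFAIP2, beside 13.7% of these regions. The 5 genes were chosen on the comparison of these groups, so nothing is read from their counts. A p-value of this kind falls with the number of fragments as well as with the enrichment of IP over input, and the lists hold neither, so more mRNA and more m6A per mRNA cannot be told apart in them. Over the regions of the other genes, both shares moved with the mRNA difference of the gene. The p-value was lower in both FUSO lists in 43.9% of 180 regions in genes with a log2 difference of at least 0.5. It was lower in 20.3% of 2487 regions in genes between 0.1 and 0.5, the range that F3 falls in. It was lower in 15.2% of 5475 regions in genes between -0.1 and 0.1 and in 8.75% of 2319 regions in genes at -0.1 or below. The peak was wider in 21.7%, 15.7%, 14.5% and 9.57% of the same regions. These are shares of regions that come from the same 4 lists and not replicates, and the part of mRNA level in the peaks of the 5 genes was not tested.

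**Figure D4:**
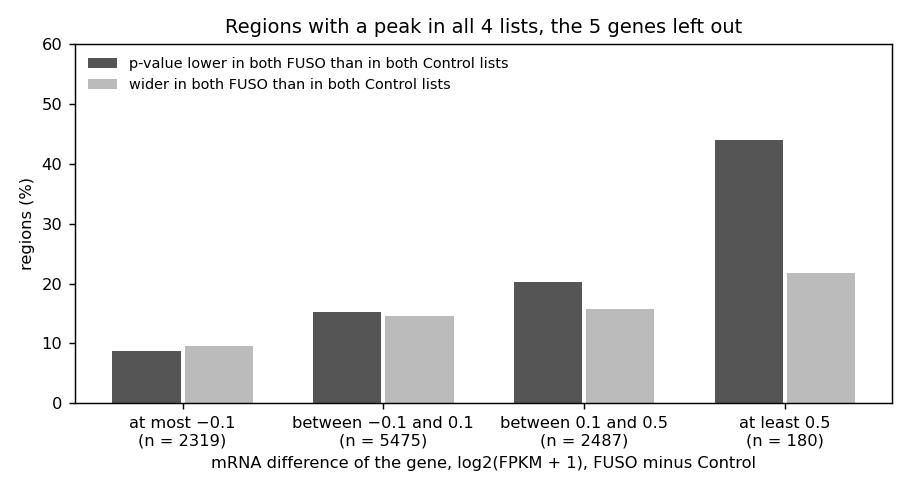
Share in percent of the regions with a peak in all 4 lists whose p-value was lower (dark bars) or whose peak was wider (light bars) in both FUSO than in both Control lists, by the mRNA difference of the gene on the log2(FPKM + 1) scale, with the 5 genes left out and the number of regions under each bar. The share with a lower p-value goes from 8.75% at the left to 43.9% at the right, and that with a wider peak from 9.57% to 21.7%.

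The regions were not richer in GGAC than the rest of the transcripts in 4 of the 5 genes. Per kilobase, GGAC was found 6.02 times in the regions and 8.31 times outside them in ICAM1, 5.06 and 5.68 times in TNFAIP2, 2.32 and 2.78 times in F3 and 2.41 and 2.81 times in SDC4. CD83 was the exception, with 5.61 against 2.22. Its regions cover 61.3% of its transcript, while those of TNFAIP2 cover 21.1%. GGAC was present in each of the 5 shared regions, beside 72.8% of all regions, which were not matched to these in length. The F3 region at the start of the transcript and the single-list regions of TNFAIP2 hold no GGAC. DRACH was present in 94.8% of all regions, so that either motif is common in them.

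The promoters were read for motifs of transcription factors, in the 250 bases before the start site as given by RefSeq on GRCh38.p14, a different build from that of the peaks. All 5 genes were found there, CD83 with 2 start sites. Searched on both strands were the classical kappaB consensus and the consensus for RelA and c-Rel homodimers, both of 10 letters and overlapping each other. NF-kB dimers are known to bind them. Also searched were the AP-1 motif TGANTCA and the EGR, SP1 and TATA motifs, of 9, 6 and 5 letters. Either kappaB consensus was found in ICAM1, F3, SDC4 and the downstream start site of CD83, and in 5235 of 34788 distinct promoter windows. Those windows were not matched to the 5 genes in base composition. The consensus differed between the genes. ICAM1 and F3 match only that of RelA and c-Rel, CD83 only the classical one, and the printed run of SDC4 both. The kappaB matches are shown with 15 bases on each side to let these letters be compared. They are in capitals, with overlapping matches as 1 run, 5′ to 3′ on the strand of the gene.
ICAM1, chr19:10270918-10270958, plus strand: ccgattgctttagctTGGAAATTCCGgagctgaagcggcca
CD83, chr6:14117681-14117746, plus strand: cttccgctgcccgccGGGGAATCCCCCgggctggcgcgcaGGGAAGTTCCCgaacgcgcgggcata
F3, chr1:94541922-94541962, minus strand: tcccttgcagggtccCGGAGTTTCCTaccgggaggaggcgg
SDC4, chr20:45348496-45348536, minus strand: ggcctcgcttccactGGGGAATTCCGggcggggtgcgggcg

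The match in ICAM1 begins 187 bases before the start site and that in F3 188 bases before it, and the printed match in SDC4 begins 97 bases before it. SDC4 has 2 further kappaB matches upstream, and CD83 has 1, not printed. F3 has 2 AP-1 motifs, which none of the others has, beside 6.59% of all windows. TNFAIP2 has neither kappaB consensus nor AP-1 in this window, which says only that these letters are not there. The files hold no measurement of factor binding, and a match is a description of the sequence.

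Genes that act with the 5 members were taken from 6 lists and tested with limma on log2(FPKM + 1), with Benjamini-Hochberg adjustment over all 11088 genes that passed the filter. Of 126 listed genes 86 were tested, 6 were higher in FUSO cells and 0 were lower at an adjusted p under 0.05. Over all tested genes 0.667% were called higher and 0.135% lower. The median difference of the listed genes was 0.09 on the log2 scale, beside 0.01 over all tested genes, and 24 of the 86 had an unadjusted p under 0.05, of which 3 were lower in FUSO cells, beside 13.5% of all tested genes in either direction and 6.45% lower. Of the 86, 47.7% were higher in both FUSO libraries than in both Control libraries, beside the 26.1% of all tested genes given above. The lists were chosen with earlier results of these data known. Their counts and p-values, here and below, are thus a description, and nothing is read from the shares.

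The NF-kB list, with the subunits of this transcription factor and its inhibitors, had the highest median, 0.32 over 12 tested genes. NFKBIA, which encodes the inhibitor IkBα, measured 19.6 and 20.7 FPKM in Control cells, against 84.8 and 89.1 FPKM in FUSO cells. It rose by 2.06 on the log2 scale (SE 0.06, limma adjusted p 0.000524). NFKBIZ, a nuclear relative of the inhibitors, rose from 0.821 ± 0.25 to 4.47 ± 0.33 FPKM (SD, n = 2 each), a difference of 1.59 (SE 0.13, limma adjusted p 0.00994), and this call was lost without FUSO replicate 1 or 2 (limma adjusted p 0.116 and 0.104). The other 10 tested genes were not called, with an adjusted p of at least 0.165, and 8 of the 12 had an unadjusted p under 0.05, beside 13.5% of all tested genes. NFKBIB, the highest in level beside NFKBIA, was at 31.4 ± 0.88 and 31.6 ± 0.50 FPKM (SD, n = 2 each).

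The list around TNFAIP2 held other genes named for their induction by TNF and genes of the exocyst. Of its 21 genes 15 were tested and 1 was called. An unadjusted limma p under 0.05 was found in 4 of the 15, beside 13.5% of all tested genes. TNFAIP3, the ubiquitin-editing enzyme A20, had 0.816 and 0.838 FPKM in Control cells, against 3.93 and 4.89 FPKM in FUSO cells, and rose by 1.56 on the log2 scale (SE 0.12, limma adjusted p 0.00852). This call was lost without FUSO replicate 2 (limma adjusted p 0.0907). The others were not called, among them TNFAIP1, an adaptor of a ubiquitin ligase, with a difference of 0.28 (limma adjusted p 0.215), and RALB, a small GTPase that acts on the exocyst, with 0.20 (0.288). TNFAIP6 was listed at 0 in all libraries.

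The list around F3 held clotting factors, their inhibitors, protease receptors and genes of fibrinolysis. Of its 21 genes 13 were tested and 3 were higher, of which the 2 described here act in fibrinolysis. An unadjusted limma p under 0.05 was found in 5 of the 13, beside 13.5% of all tested genes. PLAU, the urokinase that activates plasminogen, had 27.8 and 25.4 FPKM in Control cells, against 80.7 and 85.9 FPKM in FUSO cells, a rise of 1.61 on the log2 scale (SE 0.07, limma adjusted p 0.00145). Its receptor PLAUR rose from 42.0 ± 1.28 to 78.5 ± 2.24 FPKM (SD, n = 2 each), by 0.89 (SE 0.06, limma adjusted p 0.00601), which was no longer called without FUSO replicate 1 or 2 (limma adjusted p 0.109 and 0.106). F7, the ligand of tissue factor, was listed at 0 in all libraries. The annexins ANXA2 and ANXA5, the most abundant genes of this list, had differences of 0.09 and 0.07 (limma adjusted p 0.498 and 0.563).

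In the other 3 lists limma called no gene in either direction, and their counts at an unadjusted p under 0.05 stand beside 13.5% of all tested genes. Of the ICAM relatives and adhesion partners 9 of 19 were tested, with a median of -0.05 and 2 at an unadjusted p under 0.05. ICAM2, VCAM1, SELE and SELP, partners or relatives of ICAM1 known from endothelium, were listed at 0 in all libraries. EZR, which links membrane proteins to actin, was at 812 ± 7.31 and 689 ± 22.0 FPKM (SD, n = 2 each, limma adjusted p 0.172), and CD44, a hyaluronan receptor, had a difference of -0.05 (limma adjusted p 0.688). Of the genes of costimulation and antigen presentation 14 of 24 were tested, with a median of 0.07 and 2 at an unadjusted p under 0.05, and the difference was 0.20 for B2M (limma adjusted p 0.288) and 0.17 for HLA-B (0.514), which share the MHC class I complex. Of the syndecans and genes of heparan sulfate 23 of 28 were tested, with a median of 0.03 and 3 at an unadjusted p under 0.05. GPC1, a glypican, had a difference of -0.09 (limma adjusted p 0.690) and SDCBP, the syndecan-binding protein syntenin, had 0.04 (limma adjusted p 0.810), and SDC2 was listed at 0.

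**Figure D5:**
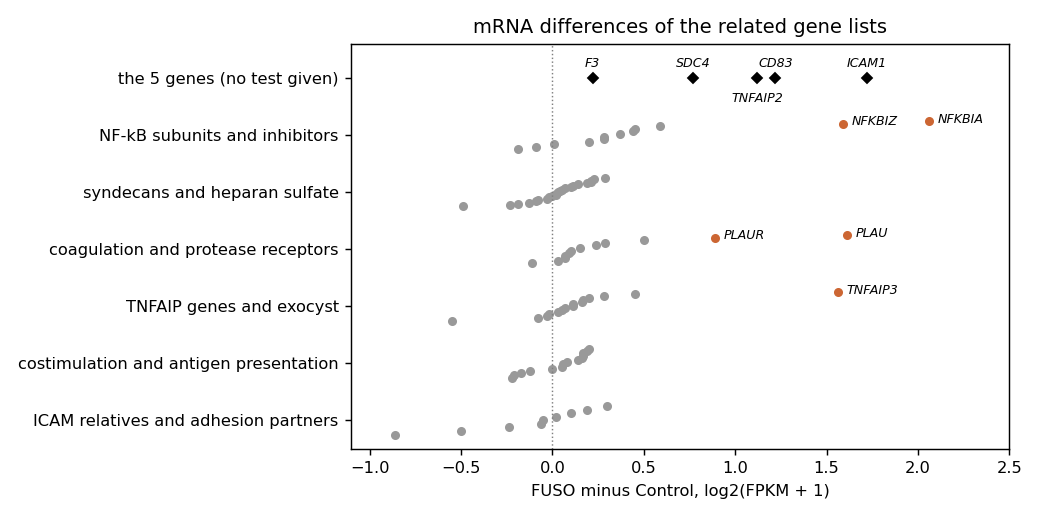
Difference between FUSO and Control on the log2(FPKM + 1) scale for the tested genes of the 6 lists (points, 1 gene not shown) and for the 5 genes, for which no test is given (diamonds). Orange points with names passed limma at an adjusted p under 0.05, grey points did not, and the 5 shown that passed lie between 0.89 and 2.06.

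The libraries were compared once as a whole. The input libraries had 14566 to 14816 entries above 0, no pair held the same values, and their relative depth, estimated from the steps between values of low genes, was 0.915 to 1.24 of that of Control 1. The absolute depth and that of the IP libraries are unknown, so no counting interval can be given. The peak lists held 17039 to 18365 peaks. Of 9 markers of colon epithelium 8 were at 1 FPKM or more in the mean, VIL1 being the exception, while 0 of 6 endothelial and 1 of 7 fibroblast markers were, the latter COL1A1. The sum of the endothelial markers was between 0.146 and 0.238 FPKM in every library, that of the immune markers between 7.53 and 9.52 FPKM and that of the fibroblast markers between 3.82 and 5.85 FPKM.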

How the data were processed

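The 5 genes, the 6 lists and the motifs were chosen with earlier results of these data known. Per the labels and the methods of the study, the authors trimmed reads (Trim Galore 0.3.3 is named in the processing notes, cutadapt in the methods), aligned them to hg19 with HISAT2 2.1.0 and computed the deposited FPKM with StringTie from the input libraries. The deposited peak lists were made per replicate and hold exon blocks and a score from which the authors' p-value was read. The methods name MACS2, and which program wrote the lists was not settled. Columns left out for want of a sample: 0.

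FPKM are not counts, so limma 3.58.1 (R 4.3.3, lmFit, eBayes with trend, two-sided, no covariate) was run on log2(FPKM + 1) in place of the count model of the study. Genes whose FPKM averaged 1 or more in the inputs were kept. The p-values set a group difference against a spread estimated from 2 libraries a group and drawn toward a trend over all tested genes. By rule, the text names the members, each listed gene called (1 of them is counted but not reported here), the 2 listed genes of highest mean FPKM per list, the 3 nearest profiles per member and every region of the members. Genes listed at 0, CD68, VIL1 and COL1A1, were named after their values were seen.

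Regions were placed on canonical transcripts of GENCODE release 44 on GRCh37 if these held 90% or more of their bases, in Python 3.11.15. Promoters came from RefSeq. Scripts were tested on simulated data. Alternatives were other pseudocounts, filters and scalings, no trend, the replicate number as a block, each library left out, a reciprocal overlap of 50% and peaks with a p-value of at most 1e-05.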

Additional observations from a re-analysis of the deposited data

How the results depend on the processing

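The count of 5 genes higher in FUSO held under each alternative, and their median difference of 1.12 was 1.18 with a pseudocount of 0.1, 1.11 after quantile normalization and 1.02 to 1.19 with 1 library left out. Of the 10 regions, 11 were formed with a reciprocal overlap of 50%, 7 with peaks at p of at most 1e-05 and 9 to 10 with 1 list left out, while the 5 shared regions stayed at 5 throughout. The 2 regions in FUSO only became 1 with the reciprocal overlap and 0 at p of at most 1e-05, where the weaker peaks are removed, and were 2 to 3 with 1 list left out. Regions in Control only went from 0 to 1 without either Control list, as a single list then met the rule.

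Listed genes called higher numbered 6, and 4 with a filter at 5 FPKM, which removes TNFAIP3 and NFKBIZ, so that the TNFAIP list had 0 and the NF-kB list 1. With 1 library left out they numbered 2 to 8, fewest without FUSO replicate 2 (2) and FUSO replicate 1 (3). The lone library of a group is then assumed to vary like the others. The ranges were 1 to 5 for the coagulation list, 0 to 1 for the TNFAIP list, 1 to 3 for the NF-kB list and 0 to 1 for the ICAM list, whose call without a Control library was a lower one, so that the count of lower calls was 0 to 1. The costimulation and the syndecan list stayed at 0. Of 48 recomputed values of the 5 called genes described here 43 kept the call and 5 lost it, all in the same direction, with limma adjusted p from 0.000206 to 0.116. Among uncalled genes the sign turned with 1 library left out for GPC1 (-0.20 to 0.03), SDCBP (-0.02 to 0.11) and NFKBIB (-0.02 to 0.04).

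With the replicate number as a block 6 listed genes were called higher and 0 lower, and no other call changed. The numbers were not taken as pairs: the correlation over genes of the difference between replicates 1 and 2 in Control with that in FUSO was 0.0243. Depth is unknown beyond the relative values of the inputs, and at 2 libraries a group an exact permutation test cannot pass 0.05.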
